A study of Mus musculus with 6 samples.

Results

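The subunits of the oxidative phosphorylation system that are encoded in the nucleus were measured by RNA-seq in cultured neonatal mouse microglia. They were taken by symbol alone from the table of raw counts, as the genes named Nduf followed by a, b, c, s or v and a number, Sdha to Sdhd, Uqcr, Cox4 to Cox8 with a letter from a to c, or Atp5, without pseudogenes marked -ps. The rule gave 89 of the 41079 genes listed, of which 43 belonged to complex I, 4 to complex II, 8 to complex III, 16 to complex IV and 18 to complex V. After the filter on low counts, 80 of the 89 were tested among 14618 genes, namely 39, 4, 8, 11 and 18 for complexes I to V. The symbol rule uses no measured value, and it admits gene copies not annotated as protein-coding, such as Ndufb4b and Ndufb4c.

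Oxidative phosphorylation is carried out in the inner mitochondrial membrane. Complexes I and II pass electrons from NADH and succinate to ubiquinone, complex III passes them to cytochrome c, complex IV to oxygen, and complex V uses the proton gradient so formed to make ATP. All complexes but complex II combine nuclear-coded subunits with subunits read from the mitochondrial genome, so that transcripts of 2 genomes are needed for one machine. In microglia, the resident macrophages of the brain, the balance of oxidative phosphorylation and glycolysis is known to differ between surveying and activated cells.

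The libraries came from C57Bl/6N mice of postnatal days 1 to 3. Microglia were shaken off mixed glial cultures that had received L-929 conditioned medium, pooled from several neonates per flask, and adhered briefly in medium with serum in all conditions. The 3 control libraries were from cells in serum-free DMEM/F12 and the 3 optimized libraries, labelled as treated, from cells that also received human TGF-β1, IL-34 and CX3CL1 at 100 ng/mL each according to the labels. According to the study's methods, the optimized condition added cholesterol, insulin-transferrin-selenium and a collagen IV coating, so the contribution of a single supplement cannot be told apart. Each library held 20628148 to 27261839 counts. The authors describe the samples as biological replicates. In bulk RNA, fewer cells of a type and less RNA per cell cannot be told apart.

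All 12 microglia markers examined were present, and their summed level was 11747 to 13240 CPM (counts scaled to a common library depth with TMM factors) in the control libraries and 16192 to 22269 in the optimized libraries. Of the 12, 6 rose, among them Cx3cr1 and Tmem119, and Csf1r and Aif1 fell. Summed astrocyte markers were at 34.8 to 37.4 CPM in control and 23.5 to 27.0 CPM in optimized libraries, and Aldh1l1 alone of the list was called (-1.83 on the log2 scale). Of the 7 astrocyte markers, 3 had positive and 4 negative log2 fold changes. Neuron markers were at 5.12 to 6.08 and 6.96 to 8.13 CPM, with Nefl as the only call. Of the 5 neuron markers tested, 4 had positive and 1 a negative log2 fold change. Oligodendrocyte markers were at 134 to 151 and 162 to 199 CPM, with Mbp as the only call. Of these 6 oligodendrocyte markers, 2 had positive and 4 negative log2 fold changes, with a median of -0.06. The oligodendrocyte precursor list, of which Cspg4 alone was called, went from 39.1 to 50.8 CPM in control to 452 to 632 CPM in optimized libraries. The fibroblast and vascular list went from 117 to 126 CPM to 299 to 429 CPM, with Flt1 as its only call. All 5 precursor markers and all 8 tested fibroblast and vascular markers had positive log2 fold changes, with medians of 0.49 and 0.87. At an unadjusted p under 0.05 (edgeR) there were 3 and 2 of them. The median fibroblast and vascular marker lay at -0.86 and 0.96 from its condition mean in optimized libraries 2 and 3. The neuron markers Syt1 and Snap25 and the endothelial marker Cldn5 had at most 2 counts in any library. The part of these cells in the results below was not tested.

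Promoter sequences were examined because the genes share regulators that the symbol rule does not use. Nuclear respiratory factor 1 (NRF1), the GA-binding protein of the ETS family (GABP), YY1 and the estrogen-related receptors (ERR) are known regulators of respiratory chain genes. Windows from 250 bases before to 50 bases after each RefSeq start (GRCm38.p6) were found for 65 of the 80 tested genes, 70 windows in all, and short words were searched on both strands. The ETS word CCGGAAG was in 22.9% of these windows and in 11.6% of 21262 windows of all protein-coding genes. The NRF1 word GCGCATGC was in 14.3% and 3.51%, the YY1 word GATGGCGG in 10% and 2.27%, and the ERR word AAGGTCA in 11.4% and 4.08%. Any of the 4 words was in 44.3% of the windows of the subunits and in 19.6% of all windows, as a description of letters and not of binding. The NRF1 word and its reverse complement overlap each other in the palindromic stretch that contains both.

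Upstream sequences of 4 subunits follow, 3 of them to show such words and that of Atp5f1b, the subunit with the highest level, as a window without any of the 4. Capitals mark the words. Cox6a1, a structural subunit of complex IV, had the NRF1 word on both strands, in a window at chr5:115487051-115487267 (minus strand). Uqcr11, a small subunit of complex III, had the ETS word at chr10:80242677-80242905 (minus strand). Ndufb2, an accessory subunit of complex I, had the ERR word at chr6:39569249-39569489 (plus strand). The window of Atp5f1b lay at chr10:127918926-127919131 (plus strand). All were located on GRCm39 and end at the last base before the annotated gene start. The full windows of Cox6a1 and Uqcr11 also held the ETS and the NRF1 word, respectively, in the bases not printed.
Cox6a1: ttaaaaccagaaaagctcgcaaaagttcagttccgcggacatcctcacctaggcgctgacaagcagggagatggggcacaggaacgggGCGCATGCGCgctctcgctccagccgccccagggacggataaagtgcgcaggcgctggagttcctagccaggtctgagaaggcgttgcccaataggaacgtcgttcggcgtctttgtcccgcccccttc
Uqcr11: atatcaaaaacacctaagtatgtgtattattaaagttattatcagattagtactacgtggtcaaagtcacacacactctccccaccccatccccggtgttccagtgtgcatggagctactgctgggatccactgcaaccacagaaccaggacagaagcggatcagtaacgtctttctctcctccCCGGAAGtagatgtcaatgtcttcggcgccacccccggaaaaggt
Ndufb2: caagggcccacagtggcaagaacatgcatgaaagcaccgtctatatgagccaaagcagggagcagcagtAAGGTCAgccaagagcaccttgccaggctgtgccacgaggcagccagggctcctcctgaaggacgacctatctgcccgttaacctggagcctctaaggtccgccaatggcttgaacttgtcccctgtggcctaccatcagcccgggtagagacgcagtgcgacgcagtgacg
Atp5f1b: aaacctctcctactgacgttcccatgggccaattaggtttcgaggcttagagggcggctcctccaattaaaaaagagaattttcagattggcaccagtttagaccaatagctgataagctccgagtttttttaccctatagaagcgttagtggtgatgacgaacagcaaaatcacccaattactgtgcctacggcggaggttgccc
The genes behind these windows were not called between the conditions, with log2 fold changes of -0.06, -0.005, -0.12 and -0.36 for Cox6a1, Uqcr11, Ndufb2 and Atp5f1b (adjusted p = 0.882, 0.993, 0.757 and 0.0574, edgeR).

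Per length of transcript, in FPKM (fragments scaled by library depth and gene length) as deposited, the 80 tested genes ran from 4.16 (Ndufb4b) to 275 (Atp5f1b) as means over the 6 libraries. Ndufb4b is a gene copy annotated as non-coding. The highest of the genes taken by symbol was, for each complex and over all 6 libraries, Ndufa4 for the Nduf symbols (76.8 FPKM), Sdhb in complex II (77.7 FPKM), Uqcrc1 in complex III (79.1 FPKM), Cox6a1 in complex IV (183 FPKM) and Atp5f1b in complex V (275 FPKM). Cox4i1, a large subunit of complex IV whose symbol falls outside the rule, was higher than Cox6a1, at 237 FPKM. Ndufa4 carries a complex I symbol but its protein is found with complex IV. The medians over the tested members were 27.3 FPKM in complex I, 65.8 in complex II, 42.5 in complex III, 61.8 in complex IV and 64.8 in complex V. The 4 subunits of complex II, Sdhb, Sdhd, Sdha and Sdhc, were at 77.7, 66.6, 65.0 and 63.1 FPKM. In the control libraries alone (n = 3) the order was Sdhb at 81.8 ± 3.68 (SD), Sdha at 74.8 ± 2.77, Sdhd at 71.3 ± 4.97 and Sdhc at 70.9 ± 4.69 FPKM. Sdhd and Sdhc differed by less than the SD of each. Their distance from Sdha was less than their own SD and more than that of Sdha, while Sdhb lay above Sdha by more than the SD of each.

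**Figure D1:**
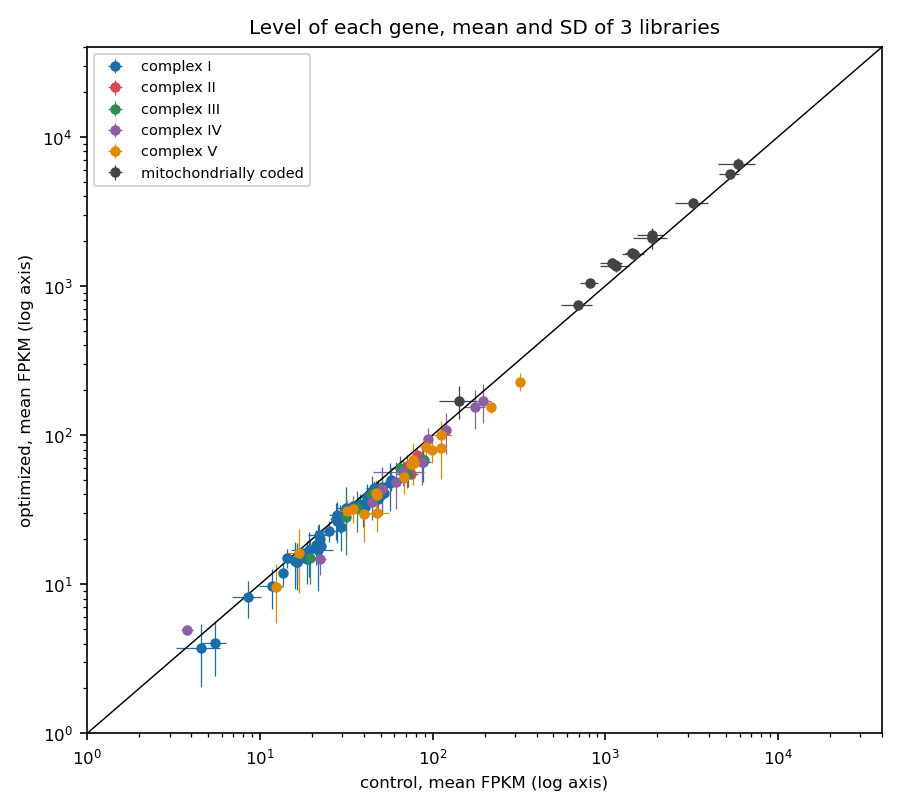
Mean FPKM of each tested subunit and of the 13 mitochondrially coded genes in the control (x axis) and optimized libraries (y axis), both on log axes, with SD of 3 libraries. The nuclear-coded subunits lie at or below the line of equal level, except for Cox6a2, Cox7a2l, Ndufa1, Ndufb11 and Ndufv3 just above it, and the mitochondrially coded genes other than ND3 lie far above them in level.

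Of the 80 tested subunits, none rose and 2 fell at an adjusted p under 0.05 (2.5%), against 29.8% of all genes tested, 14.7% higher and 15.2% lower (edgeR's quasi-likelihood test, Benjamini-Hochberg adjustment over all genes). At an unadjusted p under 0.05 there were 7, against 39.4% of all genes, and DESeq2 called 0 higher and 5 lower, against 31% of all genes. The subunits that fell were Sdha in complex II and Atp5f1a in complex V. The median log2 fold change of the 80 was -0.06, beside 0.01 over all genes tested. By complex the medians were -0.03, -0.14, -0.03, -0.08 and -0.12 for complexes I to V. Of the 80, 58 had a negative and 22 a positive value, and the values ran from -0.53 to 0.52. The number of negative values was 23 without optimized library 1, 37 without control library 3, 76 without optimized library 2, 75 with library size alone and 77 in both limma fits to FPKM with a mean of at least 1. Without TMM factors the median of all genes was also lower, at -0.12 with library size alone and -0.13 and -0.16 in these limma fits. The 95% interval lay within 2-fold in either direction for 79 of the 80 and within 1.5-fold for 48, so smaller differences could not be seen for many. The libraries of the conditions did not overlap for 5 of the 80, 4 lower and 1 higher in the optimized libraries, against 43.9% of all genes tested.

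**Figure D2:**
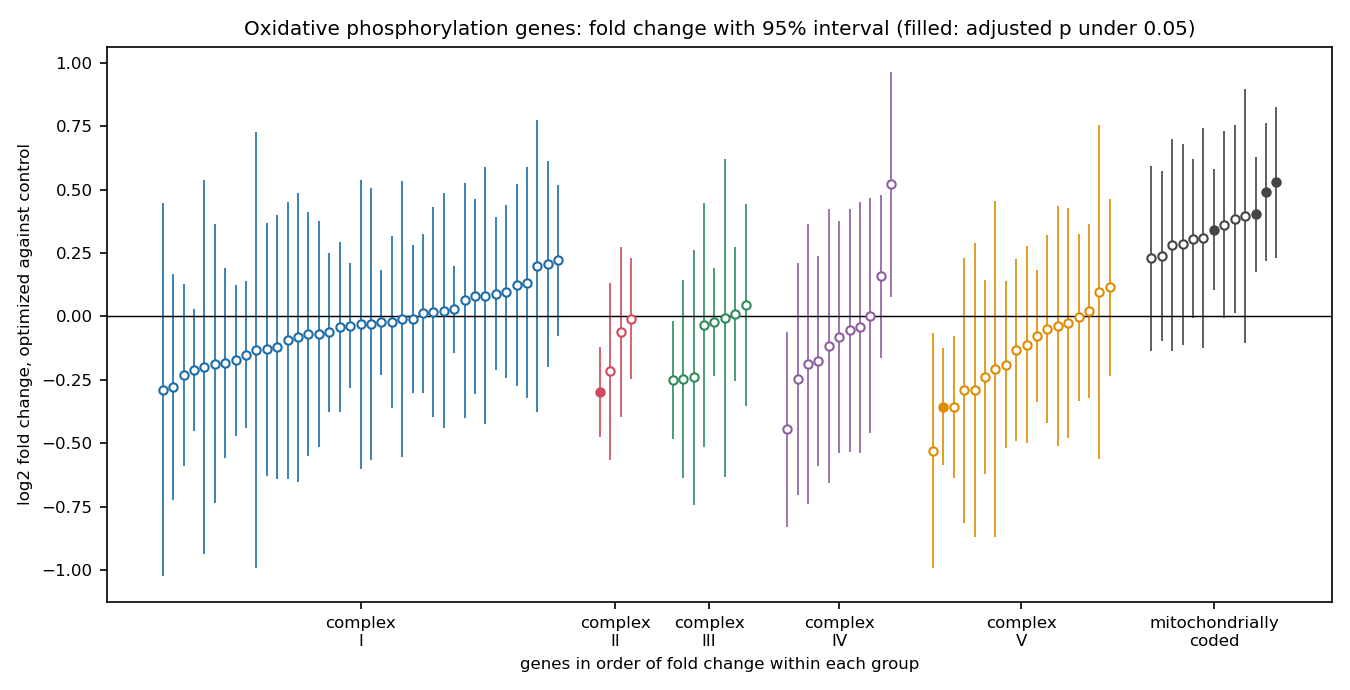
Log2 fold change of each tested gene, optimized against control, with its 95% interval, in order within each complex and for the mitochondrially coded genes. Filled points passed an adjusted p of 0.05. Most nuclear-coded subunits lie between -0.3 and 0.2 with intervals across 0, and all 13 mitochondrially coded genes lie above 0.

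The values of the subunits varied together between libraries of the same condition. In the optimized libraries, library 1 was the lowest of the 3 for 77 of the 80 subunits and library 2 the highest for 73. Over all genes tested these shares were 43.1% and 36.1%, against 96.2% and 91.2% for the subunits. The median subunit lay 0.41 below its condition mean in optimized library 1 and 0.34 above it in optimized library 2 on the log2 scale, a gap of 0.75. In the control libraries the medians were -0.13, -0.02 and 0.14 for libraries 1 to 3. Control library 3 was the highest for 73 of the 80, against 34.5% of all genes tested. Control library 1 was the lowest for 60 of the 80, against 35.8% of all genes tested. The gap between optimized libraries 1 and 2 was 0.77 in complex I, 0.49 in complex II, 0.68 in complex III, 0.89 in complex IV and 0.70 in complex V. It moved with transcript length, being 0.93 for the 45 subunits under 1000 bases and 0.59 for the 35 of 1000 bases or more. For all tested genes under 1000 bases it was 0.35. For the genes taken by symbol as cytosolic ribosomal proteins it was 0.78, and for the mitochondrial ribosomal proteins 0.44. What sets these libraries apart was not tested.

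**Figure D3:**
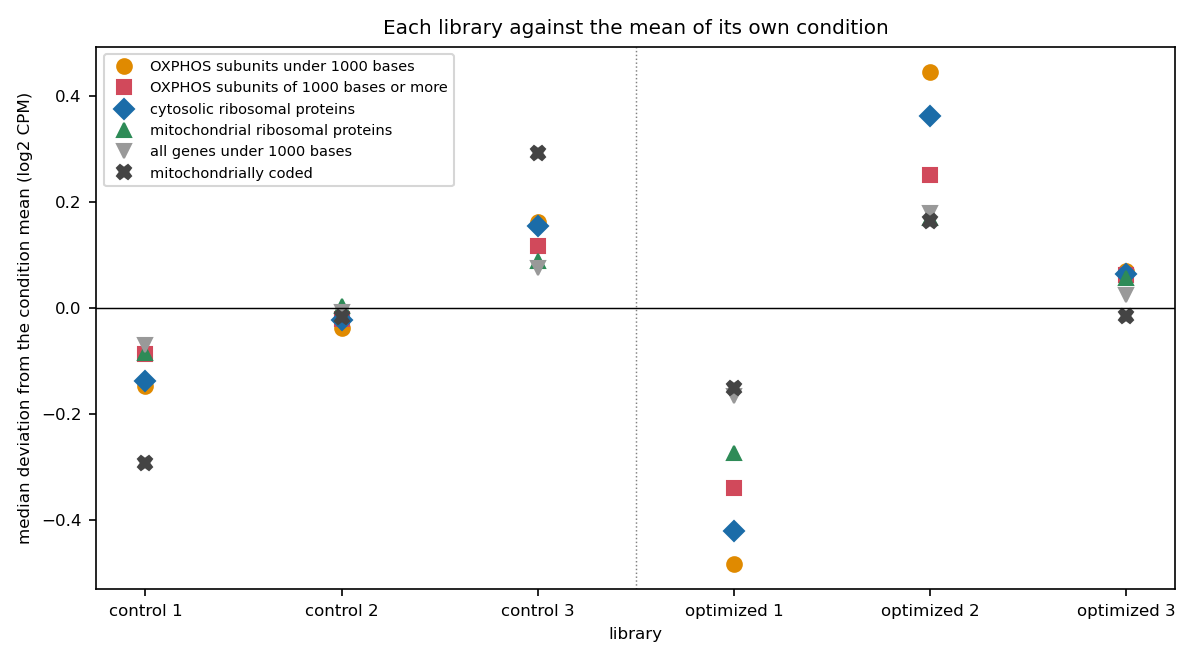
Median deviation of gene groups from the mean of their own condition (y axis, log2 CPM) in each of the 6 libraries (x axis). Optimized library 1 lies lowest and optimized library 2 highest for the short subunits, at -0.48 and 0.45. The genes taken by symbol as cytosolic ribosomal proteins lie close to these subunits.

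The counts of calls rest on these libraries. Without optimized library 1, 5 subunits were called higher, namely Cox7a2l, Ndufa1, Ndufa13, Ndufb11 and Ndufv3, and 2 lower, where 35.1% of all genes were called, and the median was 0.12. Without optimized library 2, none was called higher and 12 lower, where 29.2% of all genes were called, and the median was -0.30. Sdha and Atp5f1a were among the lower subunits in both of these fits. Without control library 3 no subunit was called, where 22.3% of all genes were, and the median was 0.01. With the trend on gene length removed from each library, 3 were higher (Cox6a2, Cox7a2l and Ndufv3) and 6 lower (Atp5f1a, Atp5f1b, Atp5if1, Cox5a, Sdha and Uqcrc1), where 36.7% of all genes were called.

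Complex II, succinate dehydrogenase, links the citric acid cycle to the respiratory chain and has no mitochondrially coded subunit. Sdha, its catalytic flavoprotein (chr13:74469359-74498436, minus strand, GRCm39), was at 215, 204 and 212 CPM in control libraries 1 to 3 and at 169, 180 and 165 CPM in optimized libraries 1 to 3. All optimized libraries lay below all control libraries. The level was 0.815 times that of the control (log2 fold change -0.30, SE 0.079, adjusted p = 0.0183, edgeR). Sdha was not called without control library 1, 2 or 3 or without optimized library 3 (adjusted p = 0.0744, 0.0503, 0.0738 and 0.0947), with log2 fold changes from -0.34 to -0.27 over the libraries left out. Sdhb, the iron-sulfur subunit, was at 81.7, 88.9 and 90.0 CPM in control and 74.1, 96.3 and 88.6 CPM in optimized libraries. Its libraries overlapped, and its difference was -0.01 with a 95% interval from -0.25 to 0.23. Sdhc and Sdhd, the membrane anchors, had differences of -0.22 (-0.56 to 0.13) and -0.06 (-0.40 to 0.27) on the log2 scale and overlapped between the conditions. The difference between Sdha and the other subunits was not tested.

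Complex V, the ATP synthase, contains a catalytic F1 head, a rotating ring of c subunits in the membrane and a peripheral stalk. Atp5f1a, the α subunit of the head, was at 488, 517 and 552 CPM in control libraries 1 to 3 and at 357, 432 and 428 CPM in optimized libraries 1 to 3. The groups did not overlap. It fell to 0.781 times the control level (log2 fold change -0.36, SE 0.10, adjusted p = 0.026, edgeR). Atp5f1a was not called without control library 2 or 3 or optimized library 3 (adjusted p = 0.087, 0.0959 and 0.0541).

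Atp5f1b, the catalytic β subunit, was at 564, 581 and 644 CPM in control and at 381, 509 and 507 CPM in optimized libraries. Its groups did not overlap either, and its difference of -0.36 (95% interval -0.63 to -0.08) did not pass the threshold (adjusted p = 0.0574, edgeR). The other head and stalk subunits Atp5f1c, Atp5f1d and Atp5f1e, coding for γ, δ and ε, were at -0.08, -0.05 and -0.04, with intervals across 0. All 5 of these genes had negative values.

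The c ring is built from one mature protein that is coded by Atp5mc1, Atp5mc2 and Atp5mc3. Atp5mc1 was at 31.3, 34.0 and 37.0 CPM in control and 26.0, 39.6 and 38.4 CPM in optimized libraries, Atp5mc2 at 62.5, 65.8 and 87.1 and at 49.8, 91.4 and 70.4 CPM, and Atp5mc3 at 84.9, 94.6 and 102 and at 56.3, 93.9 and 88.6 CPM. In each of them optimized library 1 was the lowest of the 6. Their log2 differences were 0.02, -0.03 and -0.24, with intervals of -0.32 to 0.37, -0.48 to 0.43 and -0.62 to 0.14. As the coding parts are similar, reads may be divided between these genes in a way the sources used here do not state.

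Atp5if1, the inhibitor that blocks reverse action of the ATP synthase, had the lowest log2 fold change of all 80. It was at 56.9, 70.6 and 85.7 CPM in control libraries and at 35.6, 64.2 and 47.9 CPM in optimized libraries, so optimized library 2 overlapped the control range. The difference was -0.53 (SE 0.21, adjusted p = 0.0838, edgeR). Over the libraries left out in turn it ran from -0.78 to -0.34, with adjusted p from 0.0065 to 0.269 (edgeR). The value of -0.78 was that without optimized library 2, the only one of these fits in which Atp5if1 was called. The 5 accessory subunits of the membrane part, Atp5me, Atp5mf, Atp5mg, Atp5mj and Atp5mk, ran from -0.29 to 0.10 and the 4 of the peripheral stalk, Atp5pb, Atp5pd, Atp5pf and Atp5po, from -0.19 to 0.12, and none was called.

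**Figure D4:**
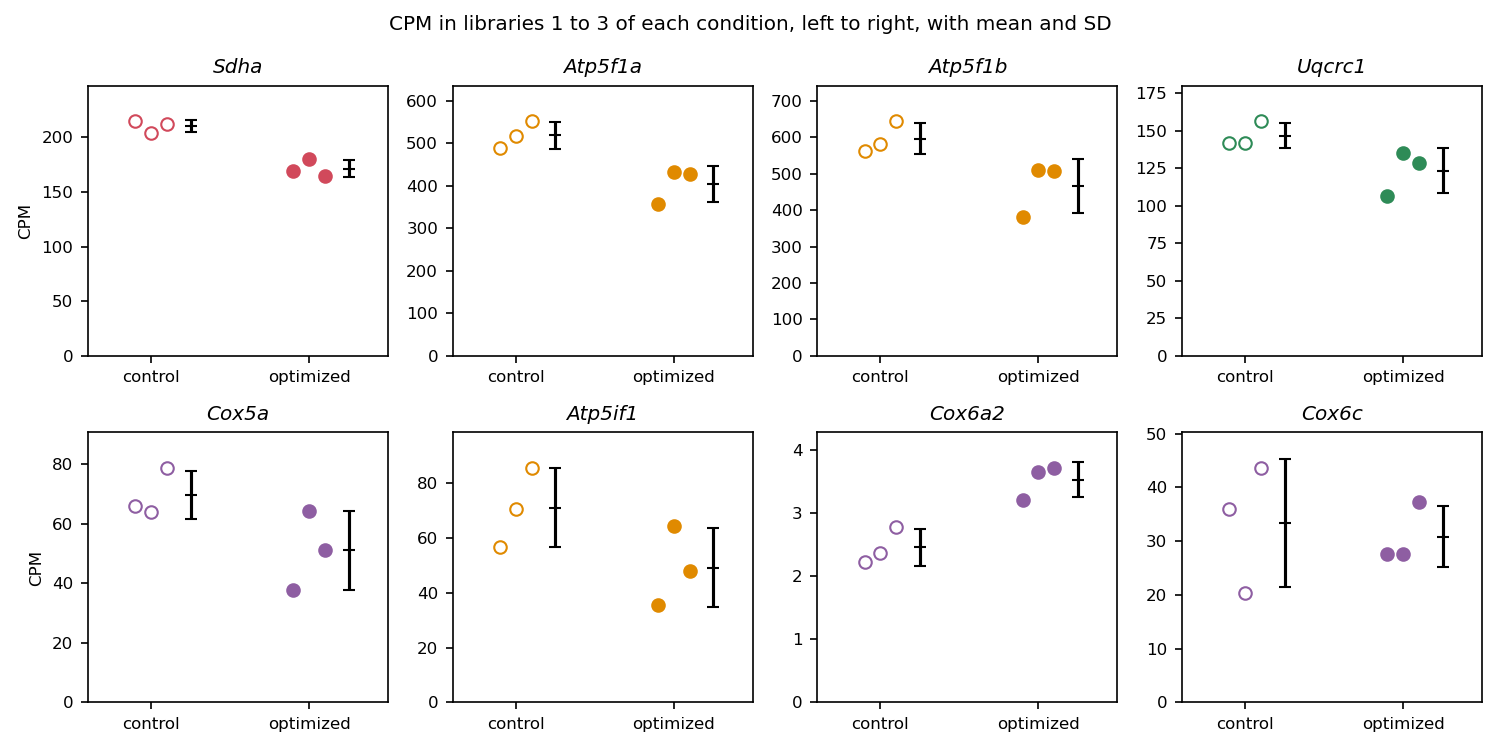
CPM of 8 subunits in libraries 1 to 3 of each condition (control open, optimized filled), with mean and SD beside them, each panel with its own axis from 0. Sdha, Atp5f1a, Atp5f1b and Uqcrc1 do not overlap between the conditions, Cox6a2 is higher in every optimized library, and Cox6c shows a control library 2 at 20.4 CPM, below the other libraries.

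Complex I, NADH dehydrogenase, had no called subunit among the 39 tested. Its 7 core subunits, which include the carriers of the flavin and the iron-sulfur clusters, had a median of 0.01, with 4 positive and 3 negative values and none called. Ndufs1, the iron-sulfur subunit with the longest transcript among the 80 (3657 bases), was at 62.6, 63.7 and 63.5 CPM in control and 63.9, 63.4 and 66.1 CPM in optimized libraries. Its libraries lay within a few CPM of each other, and the difference was 0.03 with a 95% interval from -0.14 to 0.20. Exons of Ndufs1 overlap those of Eef1b2 on the opposite strand, which had 2.64 times its mean count, and the strand setting of the counts is not stated in the sources used here. Such overlap was common, as 42 of the 80 tested had an exon that overlaps another listed gene. For 24 of them that gene had at least 0.2 times their mean count, and for 12 it was at least as high.

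The 29 accessory subunits of complex I ran from -0.23 to 0.22, with 10 positive and 19 negative. Ndufv3 had the highest value and was at 21.5, 22.5 and 22.7 CPM in control and 21.8, 31.2 and 24.5 CPM in optimized libraries. Its groups overlapped, and its difference of 0.22 (-0.08 to 0.52) did not pass (adjusted p = 0.254, edgeR). Ndufa4 was at 37.0, 44.7 and 47.7 CPM in control and 24.5, 46.1 and 36.2 CPM in optimized libraries, with a difference of -0.28 (-0.72 to 0.17). Of the gene copies in the list, Ndufb4b and Ndufb4c had between 22 and 75 and between 26 and 90 counts in a library and were not called. They are annotated as a long non-coding RNA and as a transcribed processed pseudogene, respectively. Both resemble Ndufb4 and may share reads with it. Ndufa11b and Ndufb11b had 0 counts in every library, and Ndufs6b had 0 to 5.

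Complex III, the cytochrome bc1 complex, had no called subunit among 8. Uqcrc1, a core protein of the complex, was at 142, 141 and 156 CPM in control and 106, 135 and 128 CPM in optimized libraries. Its groups did not overlap, and the difference was -0.25 (-0.48 to -0.02, adjusted p = 0.103, edgeR). Its partner Uqcrc2 was at 76.2, 86.3 and 88.3 CPM in control and 74.9, 86.0 and 86.1 CPM in optimized libraries, a difference of -0.02 (-0.24 to 0.19). Uqcrfs1, the Rieske iron-sulfur protein, was at 0.01 (-0.25 to 0.27). The small subunits Uqcr10, Uqcr11, Uqcrb, Uqcrh and Uqcrq lay between -0.25 and 0.05. Uqcr11, an example chosen after its values were seen, had optimized libraries far apart, at 7.58, 20.3 and 12.4 CPM against 12.9, 13.1 and 14.6 CPM in control. Its exons overlap those of 3300002P09Rik on the opposite strand, which had 1.73 times its mean count.

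Complex IV, cytochrome c oxidase, has tissue isoforms for several of its subunits. Cox6a1, the widely expressed form, was at 94.0, 96.1 and 122 CPM in control and 65.8, 131 and 104 CPM in optimized libraries. Cox6a2, the form known from heart and skeletal muscle, was far lower, at 2.23, 2.37 and 2.78 CPM in control and 3.22, 3.66 and 3.72 CPM in optimized libraries, from 51 to 86 counts. All optimized libraries lay above all control libraries. The difference of 0.52 was the highest of the 80 (SE 0.20, 95% interval 0.08 to 0.96) and did not pass (adjusted p = 0.076, edgeR). Per length, the means over all libraries were 183 FPKM for Cox6a1 and 4.36 FPKM for Cox6a2. Cox6b2, Cox7a1 and Ndufa4l2 had at most 7, 6 and 2 counts in a library, and Cox7b2, Cox8b and Cox8c had 0 counts in all 6. The limit set by a count of 0, taken as 3 counts per library, was 0.110 to 0.145 CPM and covers counting error only. The paralogs Cox6b1, Cox7a2, Cox7b and Cox8a were at 0.003, -0.18, -0.08 and -0.04 on the log2 scale and were not called.

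Cox5a, a structural subunit, was at 65.9, 64.0 and 78.8 CPM in control and 37.9, 64.3 and 51.1 CPM in optimized libraries. Optimized library 2 reached the control range, and the difference was -0.44 (SE 0.17, adjusted p = 0.0798, edgeR). Cox7a2l, a factor that joins complexes III and IV in supercomplexes, was at 97.1, 108 and 113 CPM in control and 92.0, 141 and 122 CPM in optimized libraries, a difference of 0.16 (-0.16 to 0.48). Cox6c did not follow the other subunits in the control libraries, where it was at 36.1, 20.4 and 43.7 CPM, against 27.6, 27.7 and 37.3 CPM in optimized libraries. Exons of Cox6c overlap those of Vps13b on the opposite strand.

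The nuclear-coded subunits had values on both sides of 0, with 22 of the 80 positive in the main fit. All 13 mitochondrially coded subunits were positive, also under every alternative that kept them. In the main fit they ran from 0.23 to 0.53 with a median of 0.34. Of them 4 rose at an adjusted p under 0.05, namely ND4, ND4L, ND5 and ND6, all subunits of complex I. These 4 are 30.8% of the 13, close to the 29.8% of all genes tested that were called. ND5 was at 1243, 1480 and 1663 CPM in control and at 2131, 2030 and 1999 CPM in optimized libraries, and the groups did not overlap. Its log2 fold change was 0.49 (SE 0.12, adjusted p = 0.0123, edgeR). ND4 was at 1435, 1557 and 1663 CPM in control and at 2110, 2080 and 1965 CPM in optimized libraries, a rise of 0.40 (SE 0.10, adjusted p = 0.0132, edgeR). ND6 and ND4L rose by 0.53 and 0.34 (adjusted p = 0.0133 and 0.0358, edgeR). ND6 overlaps ND5 on the opposite strand and ND4L overlaps ND4 on the same strand, so reads may be shared between them. COX1, the catalytic subunit of complex IV, was at 6752, 7858 and 9452 CPM in control and 8411, 10310.5 and 9671 CPM in optimized libraries, which overlapped, with a difference of 0.24 (-0.10 to 0.57). None of the 13 was called without control library 1 or without control library 2 (22.4% and 21.8% of all genes). Of the 13, 8 were called without control library 3 and 7 without optimized library 1 (22.3% and 35.1% of all genes). ND4L alone of the 4 was also not called without optimized library 2 or 3 (adjusted p = 0.0623 and 0.069). In the 3 limma fits to FPKM none was called, where 35.8%, 35.4% and 16.4% of all genes were.

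The ratio of the mitochondrially coded to the nuclear-coded counts was 4.02, 4.48 and 4.95 in control libraries 1 to 3 and 7.19, 5.79 and 5.98 in optimized libraries 1 to 3. The conditions did not overlap. Of all counts, the nuclear-coded subunits took 0.474%, 0.498% and 0.523% in control libraries and 0.347%, 0.453% and 0.423% in the optimized ones. The mitochondrially coded genes took 1.91%, 2.23% and 2.59% in control and 2.49%, 2.62% and 2.53% in optimized libraries, where control library 3 reached the optimized range. Within complexes the ratio was 4.88, 5.24 and 5.60 against 9.14, 6.15 and 6.70 for complex I, and 2.56, 3.19 and 3.42 against 4.62, 4.19 and 4.18 for complex III. It was 15.4, 17.9 and 17.9 against 26.7, 18.9 and 21.7 for complex IV, and 1.39, 1.51 and 1.92 against 2.54, 2.31 and 2.21 for complex V. All optimized libraries were above all control libraries in each of the 4 complexes with coded subunits. The nuclear-coded sums hold only genes of the symbol rule, so they leave out Cox4i1 and Cyc1 and count Ndufa4 in complex I. The ratios were not tested.

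**Figure D5:**
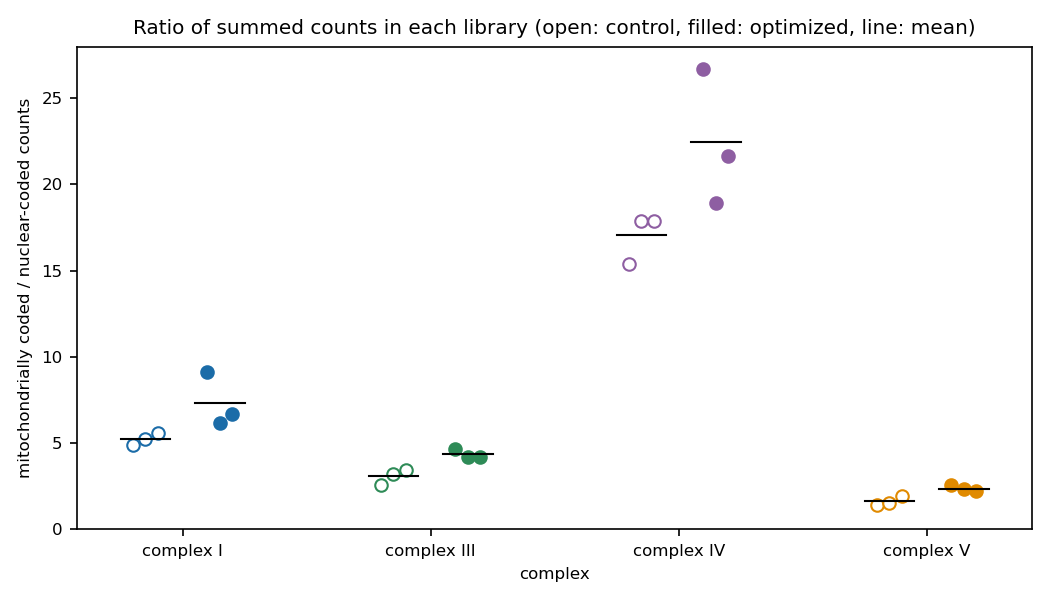
Ratio of summed mitochondrially coded to summed nuclear-coded counts (y axis, from 0) in each library, by complex (x axis), with control open, optimized filled and the mean as a line. In each complex all 3 optimized libraries lie above the 3 control libraries, with optimized library 1 the highest.

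Other genes of the pathway were counted from lists chosen with earlier results of these data known. Of 55 assembly factors tested, which help to build the complexes and are not part of them, 2 rose and 2 fell (7.27%, against 29.8% of all genes), with a median of -0.01. Dmac2, a complex I assembly factor, rose from 20.3, 21.3 and 21.0 CPM to 26.0, 26.9 and 27.5 CPM (0.36, SE 0.089, adjusted p = 0.0116, edgeR). Coa5 and Cox15, both needed for complex IV, fell by 0.33 and 0.34 on the log2 scale (adjusted p = 0.0103 and 0.0128, edgeR). Cox15 acts in the making of heme A, and its exons overlap those of Entpd7 on the opposite strand, which had 0.713 times its mean count. Exons of Coa5 overlap those of Unc50 on the opposite strand, which had 0.23 times its mean count. Ndufaf7, a methyltransferase that acts on a complex I subunit, was called higher by 1.38 (adjusted p = 1.49e-05, edgeR), and its exons overlap those of Prkd3 on the opposite strand, which had 6.06 times its mean count. Dmac2 was not called without control library 1, control library 3 or optimized library 3 (adjusted p = 0.0594, 0.0509 and 0.0514), Coa5 was not called without control library 3 (0.0526) and Cox15 without control library 2 or 3 (0.0547 and 0.057).

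Among 5 tested subunits and carriers outside the symbol rule, Cycs, which codes for cytochrome c, fell. It was at 57.2, 62.5 and 68.2 CPM in control and 40.5, 51.1 and 50.4 CPM in optimized libraries (-0.41, SE 0.11, adjusted p = 0.0221, edgeR), and was not called without control library 2 or 3 (adjusted p = 0.0765 and 0.089). Cox4i1 was at 0.09 on the log2 scale (-0.31 to 0.49), Cyc1, cytochrome c1, at -0.12 (-0.45 to 0.21) and Ndufab1, the mitochondrial acyl carrier protein, at -0.003 (-0.33 to 0.32). Of 17 regulators of mitochondrial genes tested, 2 rose and none fell (11.8%, against 29.8% of all genes). Polg, the mitochondrial DNA polymerase, rose from 67.9, 67.8 and 68.9 CPM to 100, 90.0 and 93.0 CPM (0.47, SE 0.08, adjusted p = 0.00148, edgeR), and its exons overlap those of Fanci on the opposite strand. Gabpb1, a subunit of GABP, rose from 19.6, 20.2 and 18.2 CPM to 27.0, 26.1 and 25.6 CPM (0.44, SE 0.093, adjusted p = 0.00533, edgeR). Nrf1 and Tfam, the latter a packaging and transcription factor of mitochondrial DNA, were both at -0.01 (-0.22 to 0.19 and -0.29 to 0.26). Esrra, the estrogen-related receptor α, was at -0.28 (-0.52 to -0.05, adjusted p = 0.0705, edgeR). Of 78 tested mitochondrial ribosomal proteins 1 rose and 4 fell (6.41%), with a median of -0.10. The cytosolic ribosomal proteins were taken by symbol, as Rpl or Rps with a number, Rplp or Rpp, which also admits other genes. Of these 93 genes none rose and 2 fell (2.15%), with a median of 0.04.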

How the data were processed

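Paired-end RNA-seq reads of 3 control and 3 optimized microglia libraries were mapped by the authors to mm39 (GRCm39) with HISAT2 and counted per gene with featureCounts. Versions, annotation, strand setting and the handling of reads shared by genes are not given in the sources used here. The deposited tables hold raw counts and, for the same 41079 genes, FPKM values. Each deposited FPKM value followed the count through a gene length and a library constant, and the lengths so recovered were whole within 0.02 bases, scaled on the 1545 bases of COX1, for all 13425 genes with at least 10 counts in every library. Coordinates were those of GENCODE M39, in which 35100 symbols were found.

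Groups and replicate numbers came from the labels. In R 4.3.3, edgeR 4.0.16 was used on the counts with filterByExpr, TMM factors and the quasi-likelihood test, adjusted over 14618 genes at a threshold of 0.05. SE is the log2 fold change divided by the square root of F. CPM values were scaled by TMM. The common dispersion was 0.0164, a coefficient of variation of 0.128 between replicates, at 20628148 to 27261839 counts per library. The p-values measure the spread between these libraries.

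Alternatives were library size alone, relative log expression factors, omission of the mitochondrially coded genes, DESeq2 1.42.0, no filter, a minimum of 10 counts in each library, a replicate block, a spline on log gene length (5 degrees of freedom) removed with and without that block, limma 3.58.1 on log2(FPKM + 1) and log2(FPKM + 0.1), and each library left out. Fold changes on log2(FPKM + pseudocount) understate the change of low genes. The fits were tested on simulated data.

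The set of subunits is defined by symbol and uses no measured value, but the choice to report on it, the further lists and the rule for named genes were made with earlier results of these data known. Named were called subunits, the highest member of each complex by FPKM, isoforms and relatives, complex II, the mitochondrially coded genes and called members of the lists. Other named genes, such as Ndufs1, Ndufv3, Ndufb11, Cox5a, Cox6c, Uqcrc2, Uqcr11, Ndufb2, Nrf1, Tfam and Esrra, were chosen after their values were seen. A withheld item is not reported here.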

Additional observations from a re-analysis of the deposited data

How the results depend on the processing

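The main counts were 0 subunits higher and 2 lower, 4 mitochondrially coded genes higher, and 2142 genes higher and 2218 lower in all. Relative log expression factors, the omission of the mitochondrially coded genes and a minimum of 10 counts in every library left the counts of subunits at 0 and 2. In these 3 fits 29.9%, 29.8% and 30.3% of all genes were called. Lower subunits numbered 7 with library size alone, 5 in DESeq2 and 5 with no filter, where 32.0%, 31.0% and 19.2% of all genes were called. With library size alone the median of all genes moved to -0.12 and that of the subunits to -0.20, and all calls were split into 1513 higher and 3168 lower. The limma fits to FPKM with a mean of at least 1 gave 1 higher and 7 lower subunits, 0 mitochondrially coded genes and a total of 1176 higher and 2962 lower genes with a pseudocount of 1, and 1 and 7 subunits, 0 and 1170 and 2923 genes with 0.1. With a pseudocount of 1 and without that filter, limma gave 5 lower subunits, 0 mitochondrially coded genes and 1307 higher and 2638 lower genes. Of all genes, 35.8%, 35.4% and 16.4% were called in these 3 fits, whose medians over all genes were -0.13, -0.16 and -0.01. With the gene length trend removed, 3 subunits were higher and 6 lower and 10 mitochondrially coded genes were higher, where 36.7% of all genes were called.

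The replicate numbers were not treated as pairs in the main fit. The correlations of same-numbered libraries were 0.27, -0.01 and 0.18, and those of unlike-numbered libraries ran from -0.29 to 0.19. These values do not settle whether the libraries are pairs. The replicate block gave 6 lower subunits and 7 mitochondrially coded genes, where 33.7% of all genes were called. The gene length trend removed with the replicate block gave 3 higher and 7 lower subunits and 12 mitochondrially coded genes. In that fit 38.7% of all genes were called. Over the libraries left out in turn, higher subunits numbered 0 to 5, lower subunits 0 to 12 and mitochondrially coded genes 0 to 8. The median of the subunits ran from -0.30 to 0.12, and 21.8% to 35.1% of all genes were called. The extremes came from optimized library 1 (5 higher), optimized library 2 (12 lower) and control library 3 (8 mitochondrially coded genes, and 0 lower subunits). No subunit was called without control library 2, control library 3 or optimized library 3, where 21.8%, 22.3% and 23.2% of all genes were. Without control library 1, 1 subunit was lower, where 22.4% of all genes were called. A fit without the mitochondrially coded genes gives no value for them. The cause of these shifts was not tested. The direction of Sdha and Atp5f1a was negative as reported and in all 18 alternatives, with an adjusted p under 0.05 in 14 and 15 of them. Depth limits the lowest members, since a count of 0 allows up to 0.110 to 0.145 CPM.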
